A study of Mus musculus with 6 samples.

Results

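The FERM domain scaffold genes described here are 10 genes of the mouse, *Frmd4a*, *Frmd4b*, *Frmd6*, *Frmd8*, *Farp1*, *Farp2*, *Epb41l1*, *Epb41l2*, *Epb41l3* and *Epb41l5*. They were taken by gene name from a deposited table of 20624 genes, and all 10 had 1 row each. The list was chosen by name and selected on a large genotype difference of *Frmd4b* in the authors' own comparison, whose values are not used here. RNA depleted of ribosomal RNA was sequenced from mDCT15, a line of mouse distal convoluted tubule cells, in 3 *Pkd1*-/- and 3 wild type samples. The *Pkd1*-/- cells carry a CRISPR-Cas9 edit of *Pkd1*, the gene of polycystin-1, and their titles call them *Pkd1*-/- while the genotype field calls them knockdown. Both groups were grown in the same medium with serum, and the labels give no treatment. Since the deposited mean pools the genotypes, the level of *Pkd1* itself cannot check the edit here. Whether the edited cells came from 1 clone was not given in the sources used here.

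The value analysed is the mean normalized count of each gene over all 6 samples, as the authors deposited it. It pools both genotypes. It has no spread, so no level carries an error here, no order of levels could be tested, and a difference between *Pkd1*-/- and wild type cells was not analysed. The pooled mean does set a ceiling. With 3 samples on each side, the mean of either genotype can be at most 2 times the pooled mean.

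A FERM domain is a folded module at the inner face of the plasma membrane that binds membrane lipids and the tails of membrane proteins. Many proteins with this domain tie the membrane to the actin and spectrin network, and others bring regulators of small GTPases or of the Hippo pathway to junctions and to the cell cortex. In tubular epithelium such scaffolds take part in building junctions and in keeping apical and basal membranes apart.

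Per kb of merged exons, the lowest and the highest of the protein 4.1 relatives in the list were *Epb41l3* and *Epb41l2*, and *Farp1* was the highest of the whole list. The 250 bases upstream of their canonical start sites are shown for these extremes of level, with every CG dinucleotide in capitals. All windows are from GRCm39 and are written 5′ to 3′ on the strand of the gene, which is the plus strand for all of them.
*Farp1* (chr14:121272284-121272533): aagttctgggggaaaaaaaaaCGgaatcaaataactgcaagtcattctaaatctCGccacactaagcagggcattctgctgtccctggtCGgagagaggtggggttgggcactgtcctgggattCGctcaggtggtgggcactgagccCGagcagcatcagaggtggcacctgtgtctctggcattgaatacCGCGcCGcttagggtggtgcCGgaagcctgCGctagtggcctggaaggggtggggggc
*Epb41l2* (chr10:25235438-25235687): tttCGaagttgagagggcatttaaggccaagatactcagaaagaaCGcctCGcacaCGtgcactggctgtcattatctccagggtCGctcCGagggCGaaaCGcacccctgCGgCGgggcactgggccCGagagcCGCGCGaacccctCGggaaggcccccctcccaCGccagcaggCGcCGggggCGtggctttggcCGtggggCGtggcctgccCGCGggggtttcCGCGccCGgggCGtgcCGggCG
*Epb41l3* (chr17:69463200-69463449): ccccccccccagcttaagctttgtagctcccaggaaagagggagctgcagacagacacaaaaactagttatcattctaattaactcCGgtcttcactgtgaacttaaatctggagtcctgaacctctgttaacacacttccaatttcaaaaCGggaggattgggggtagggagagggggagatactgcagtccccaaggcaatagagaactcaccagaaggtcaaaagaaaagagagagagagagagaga

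The window of *Epb41l2* held 29 CG dinucleotides, that of *Farp1* 10 and that of *Epb41l3* 2. Over the windows of 13862 protein-coding genes of the table the median was 12, with quartiles of 6 and 19. The CG counts were not in the same order as the levels per kb of merged exons, and a relation between them was not tested. *Frmd4b* had 24 and *Farp2* 21, both at lower levels per kb than *Farp1*, while *Epb41l5* had 8. *Frmd6* had 16, *Epb41l1* 8, *Frmd8* 7 and *Frmd4a* 5. *Epb41l3* and *Frmd4a*, the lowest of the list per kb of merged exons, also had the lowest CG counts. With the longest transcript, the canonical transcript or the coding length, however, the lowest after *Epb41l3* was *Farp2*, with its 21 CG dinucleotides. *Epb41l2*, with the highest CG count, was below only *Farp1* per kb of merged exons. The motif GGGCGG, searched on both strands, was in the windows of 4 of the 10 genes (*Epb41l5*, *Farp2*, *Frmd4b* and *Frmd6*) and in 48.4% of all windows. TATAAA, searched on both strands, was in 0 of the 10 and in 7.46% of all windows. *Epb41l3* has 104 annotated transcripts with several starts, and its canonical window lies inside the span of the gene, so that other starts are not covered by it. The canonical windows of *Frmd4a*, *Epb41l1* and *Frmd6* also lie inside the spans of their genes, and that of *Frmd4b* in part. The CG counts of these genes therefore hold for the canonical start only.

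The FARP proteins join a FERM domain to a guanine nucleotide exchange domain for small GTPases and act downstream of plexin receptors. *Farp1* (ENSMUSG00000025555, GRCm39 chr14:121272534-121524535, plus strand) had a mean normalized count of 4812. Its paralogue *Farp2* (ENSMUSG00000034066, GRCm39 chr1:93439801-93549698, plus strand) had a mean normalized count of 629. Longer genes collect more reads, so levels are compared between genes per kb of merged annotated exons, and the ratios also with 3 other lengths. On the scale of merged exons *Farp1* was at 239 and *Farp2* at 110 normalized counts per kb. *Farp1* was thus 2.17 times as high as *Farp2*, and between 2.17 and 7.82 times as high over the 4 lengths used for scaling (merged exons, longest transcript, canonical transcript and coding sequence).

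Both *Farp* genes run into a gene of the opposite strand at their 3′ end, and both of these neighbours encode related serine/threonine kinases. *Farp1* overlaps *Stk24* over 2937 bases and *Farp2* overlaps *Stk25* over 2228 bases. Annotated exons of both genes coincide over 2937 bases for *Farp1*, 14.6% of its merged exons, and over 1013 bases for *Farp2*, 17.8% of its merged exons. *Stk24* had a mean normalized count of 1809 and *Stk25* of 1647. Reads from the shared stretch cannot be told apart unless the strand was used in counting, and counting was described only as run with default parameters. Of the 42-base windows in the canonical transcripts, 42 bases being the read length of the study, 33.4% in *Farp1* and 23.1% in *Farp2* also occurred in transcripts of these neighbours. If none of the reads came from the shared exons, the levels over the remaining exons would be 280 per kb for *Farp1* and 134 for *Farp2*, the highest values the counts allow there.

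**Figure D1:**
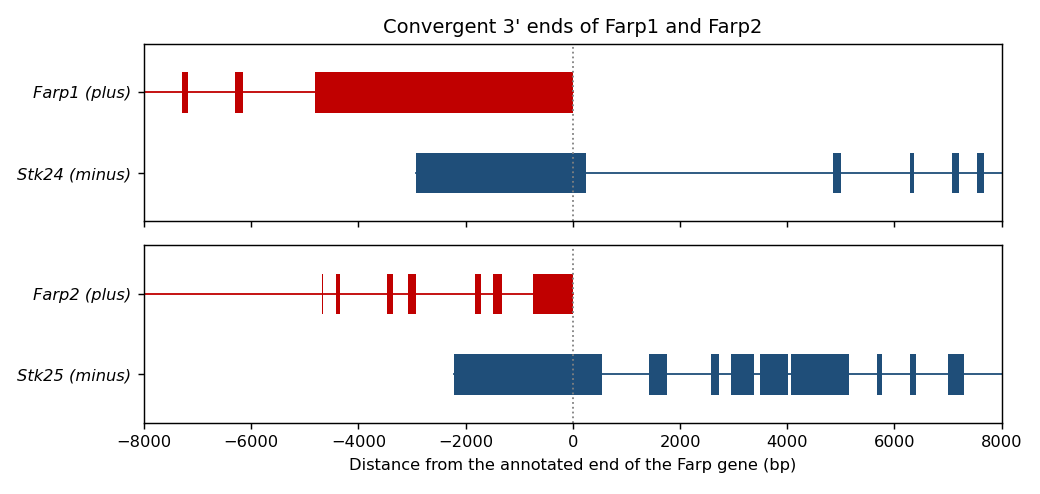
Annotated merged exons (boxes) around the 3′ ends of *Farp1* and *Farp2* (red, plus strand) and of *Stk24* and *Stk25* (blue, minus strand), as distance in bp from the annotated end of the *Farp* gene. In both pairs the last exons overlap, over 2937 bases for *Farp1* and 1013 bases for *Farp2*.

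The protein 4.1 relatives link membrane proteins to spectrin and actin. *Epb41l2* (ENSMUSG00000019978, GRCm39 chr10:25235688-25399473, plus strand), which encodes protein 4.1G, had a mean normalized count of 3371 and 227 per kb. *Epb41l5* (ENSMUSG00000026383, GRCm39 chr1:119472753-119576730, minus strand), whose product binds Crumbs proteins, had a mean of 2597 and 173 per kb. *Epb41l1* (ENSMUSG00000027624, GRCm39 chr2:156262279-156385520, plus strand), which encodes protein 4.1N, had a mean of 1819 and 121 per kb. *Epb41l2* was 1.88 times as high as *Epb41l1* per kb of merged exons, and up to 3.92 times as high with the other lengths. The order of *Epb41l2* and *Epb41l5* depended on the length used, with ratios from 0.953 to 1.93. So did the order of *Farp1* and *Epb41l2*, with ratios of *Farp1* to *Epb41l2* from 0.538 to 1.37. With the longest or the canonical transcript *Epb41l2* was the highest of the whole list.

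*Epb41l3* (ENSMUSG00000024044, GRCm39 chr17:69382677-69598256, plus strand), which encodes protein 4.1B, stood apart. Its mean normalized count was 7.97 and its level 0.486 per kb. It was below all 13611 genes of the table with a mean no lower than 10 and an annotated length. Its own mean is under that minimum, so this rank was largely set by the filter. Among all genes of the table, without length scaling, its mean was above 31.2%. Neither genotype can have had a mean above 15.9, whatever the split between them. *Epb41l2* was 468 to 597 times as high per kb over the 4 lengths, and *Epb41l1* 152 to 248 times. With each length, the nearest gene of the list was at least 91.1 times as high. Of the 42-base windows of its canonical transcript, 3.47% also occurred in annotated transcripts of other genes, so that a part of its few reads may be shared.

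**Figure D2:**
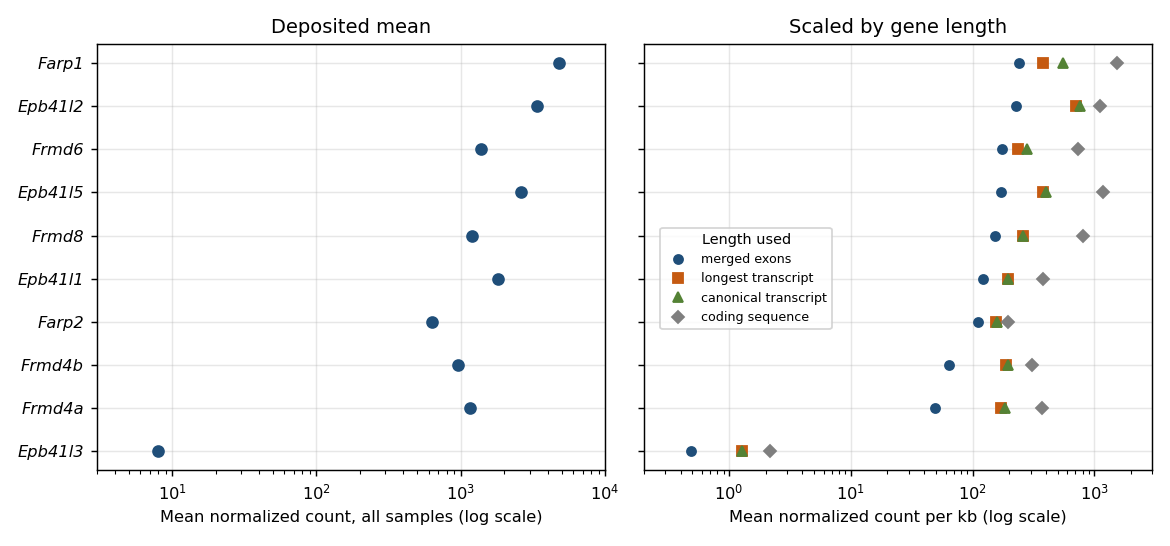
Mean normalized count over all 6 samples (left, log axis) and the same value per kb of gene length (right, log axis) for the 10 genes, ordered by level per kb of merged exons, with 1 symbol for each of 4 lengths. *Epb41l3* is at 7.97 on the left, while the other genes lie between 629 and 4812.

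*Frmd4a* encodes a scaffold that connects cytohesins, activators of the small GTPase ARF6, with the PAR polarity complex, and *Frmd4b* encodes its close relative, which also binds a cytohesin. *Frmd4a* (ENSMUSG00000026657, GRCm39 chr2:4022528-4618854, plus strand) had a mean normalized count of 1161 and *Frmd4b* (ENSMUSG00000030064, GRCm39 chr6:97263828-97594554, minus strand) of 961. They are the longest genes of the list, with spans of 596 and 331 kb. Per kb of merged exons they were the lowest but *Epb41l3*, at 49.5 for *Frmd4a* and 63.7 for *Frmd4b*. The ratio of *Frmd4a* to *Frmd4b* was 0.777 on that scale and from 0.777 to 1.20 over the 4 lengths, so that neither was higher under all of them. The mean of *Frmd4b* in one genotype can be at most 1922.

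*Frmd6* encodes an upstream regulator of the Hippo pathway, and *Frmd8* encodes a partner of the iRhom proteins, which carry the protease ADAM17 to the cell surface. *Frmd6* (ENSMUSG00000048285, GRCm39 chr12:70871627-70949010, plus strand) had a mean normalized count of 1377 and 173 per kb. *Frmd8* (ENSMUSG00000024816, GRCm39 chr19:5899730-5925436, minus strand) had a mean of 1195 and 151 per kb. Their ratio was 0.913 to 1.14 over the 4 lengths. *Frmd8* shares 20.6% of its merged exons with *Frmd8os* on the opposite strand, which had a mean normalized count of 5.60. Of the 42-base windows in its canonical transcript, 33.5% occurred in transcripts of other genes, *Frmd8os*, *Dop1b* and *Rnf121*, the highest share of the list. For *Frmd6* the share was 20.1%, with *Gm5780* among the other genes. The levels of *Frmd8*, *Farp1*, *Farp2* and *Frmd6* are therefore the most uncertain in this respect. The share was 6.40% for *Frmd4b*, 1.55% for *Frmd4a* and 0.584% for *Epb41l1*, while *Epb41l2* had 0 such windows and *Epb41l5* 1.

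The 10 genes were then set beside the rest of the table. They made up 0.107% of the summed mean normalized counts. A mean no lower than 10 and an annotated length were found for 13611 genes, with a median of 80.9 per kb and quartiles of 24.6 and 199. Of the 10 scaffold genes, 7 were above that median, 2 of them (*Farp1* and *Epb41l2*) above the upper quartile, and *Frmd4b*, *Frmd4a* and *Epb41l3* were below it. *Farp1* was above 79.6% of these genes and *Frmd4a* above 37.5%. Scaled by coding length in place of merged exons, 5 of the 10 were above the median of the same genes, and scaled by the longest transcript 9 were.

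**Figure D3:**
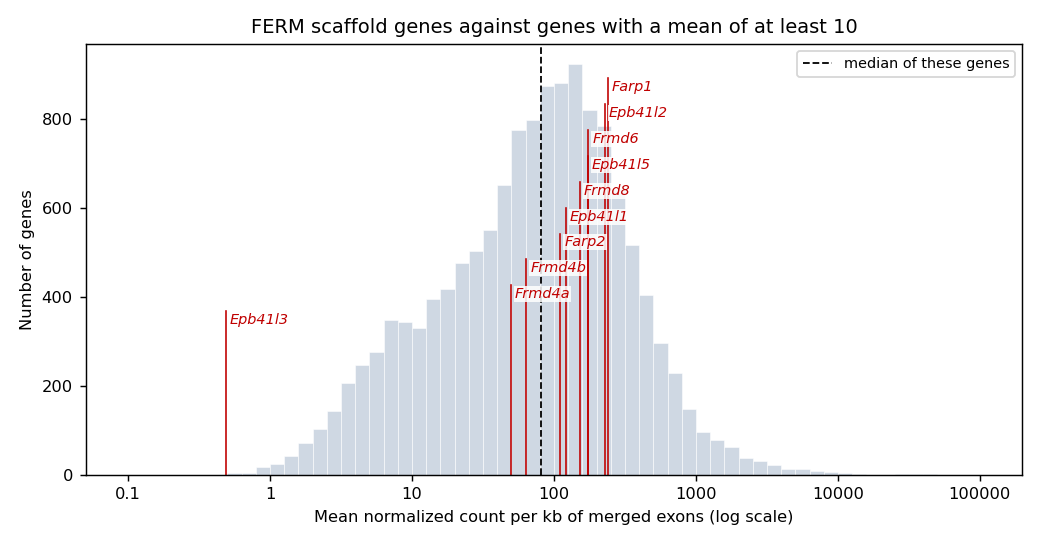
Distribution of the mean normalized count per kb of merged exons (log axis) over 13611 genes with a mean of at least 10 (grey bars, number of genes), with the 10 scaffold genes as red lines and the median of 80.9 as a dashed line. *Epb41l3*, whose mean of 7.97 is under that minimum, is drawn for comparison and lies left of all bars.

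Of 30 other genes with a FERM domain, 23 had a value and 7 had none. Their median was 170 normalized counts per kb, against 136 for the 10 scaffold genes, and 16 of the 23 were above the median of all genes. The highest were *Msn* (2282 per kb), which encodes moesin, a linker of membrane and actin, *Tln1* (1185 per kb), which encodes the integrin activator talin-1, and *Ptpn14* (829 per kb), a tyrosine phosphatase. Each was above *Farp1*, the highest of the scaffold genes per kb of merged exons. The remaining protein 4.1 genes, named after their values were seen, lay above and within the range of the scaffold genes. *Epb41*, which encodes protein 4.1R, was at 263 per kb, while *Epb41l4a* was at 95.5 and *Epb41l4b* at 12.5, below every scaffold gene but *Epb41l3*. Another gene of the FRMD group, *Frmd5*, also named after its value was seen, was at 3.79 per kb.

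A list of 31 genes of polarity complexes, the spectrin cortex and known partners had 30 genes with a value. Their median was 162 per kb, and 21 of them were above the median of all genes. *Prkci*, the atypical protein kinase C of the PAR complex, was highest at 1512 per kb, followed by *Sptan1*, which encodes alpha-spectrin, at 1460 and by *Rac1*, a small GTPase, at 1338. The other partners given here were named after their values were seen. The spectrin gene *Sptbn1*, the small GTPase genes *Arf6* and *Cdc42* and the Hippo pathway gene *Wwc1* were also far above the scaffold genes, at 792, 1127, 1063 and 946 per kb. *Cyth1*, *Cyth3* and *Pard3*, which go with the FRMD4 proteins, were at 66.5, 121 and 168 per kb. On this scale of merged exons they were within the range of the scaffold genes but above *Frmd4a* and *Frmd4b*, at 49.5 and 63.7 per kb. The order depended on the length for *Cyth1*. Per kb of the longest transcript it was at 90.0, below *Frmd4a* at 172 and *Frmd4b* at 190. *Cyth3* and *Pard3* stayed above both there, at 245 and 408. *Rhbdf1*, *Rhbdf2* and *Adam17*, which belong with FRMD8, were at 110, 107 and 159 per kb. *Plxna1*, a plexin receptor linked to the FARP proteins, was at 233 per kb, while *Plxna4*, the other plexin gene of the list, had no value. Of the Crumbs genes, *Crb3* was at 29.5, *Crb2* at 5.94 and *Crb1* at 0.130 per kb.

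**Figure D4:**
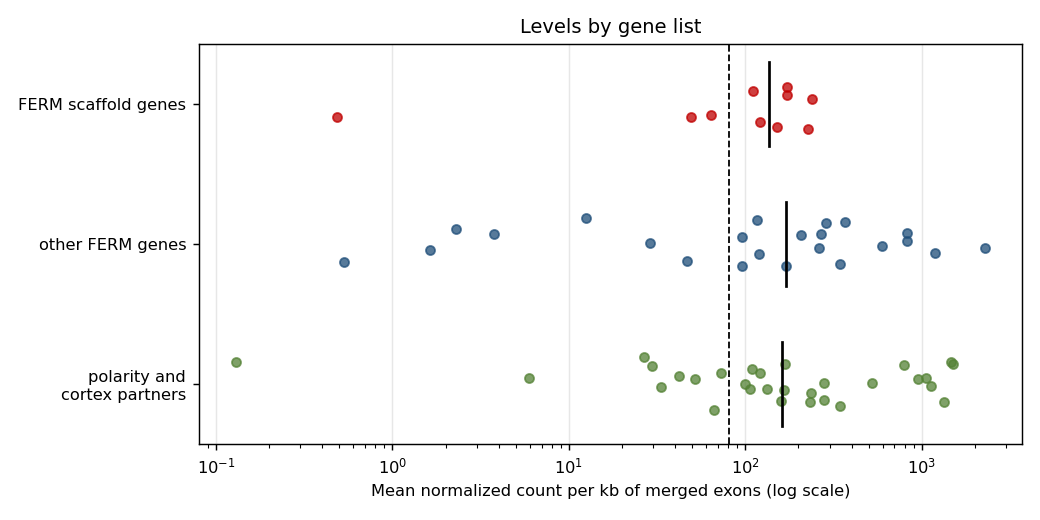
Mean normalized count per kb of merged exons (log axis) of each gene with a value in the 3 lists, with the list's median as a vertical bar and the median of all genes with a mean of at least 10 as a dashed line. The medians are 136 for the 10 scaffold genes, 170 for the 23 other FERM genes and 162 for the 30 partners.

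The label of the cell line was checked against marker genes. Of 13 markers of the distal convoluted tubule, 7 had a value here. The defining marker *Slc12a3*, the thiazide-sensitive cotransporter, had none, and neither had *Pvalb*, *Calb1*, *Slc8a1*, *Sall3* and *Emx1*. Of the 7 genes, 2 were above the median of all genes, *Wnk1* at 359 and *Wnk4* at 94.5 per kb. *Kcnj16* and *Stk39* were at 78.0 and 57.9 per kb, and *Kcnj10*, *Trpm6* and *Klhl3* at 7.07, 3.7 and 0.772. The proximal tubule markers *Aqp1* (3816 per kb) and *Lrp2* (528 per kb) were far higher, while *Slc34a1* and *Slc5a2* were at 0.322 and 0.958 per kb. Of 7 general epithelial genes 5 had a value. *Cdh16*, *Pax8* and *Pax2* were at 1125, 679 and 373 per kb, *Epcam* was at 44.6 and the keratin gene *Krt8* at 0.501, and *Cdh1* and *Krt18* had no value here. Of 5 principal cell markers 2 had a value, *Aqp3* and *Scnn1g*, at 1.06 and 0.193 per kb. *Wt1* was the 1 gene of the podocyte list with a value and *Pecam1* that of the endothelial list, at 0.345 and 0.468 per kb. In the fibroblast list *Col1a1*, *Pdgfrb* and *Dcn* were at 30.5, 0.553 and 0.461 per kb, and in the immune list *Cd68* and *Ptprc* were at 30.6 and 0.286 per kb. The part of these levels in those of the scaffold genes was not tested.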

How the data were processed

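RNA sequencing data of 3 *Pkd1*-/- and 3 wild type samples of mDCT15 cells were used, grouped by their titles. Per the paper and the submitters' processing notes, the authors trimmed reads with Trim Galore 0.4.5, mapped them with STAR 2.7.5a to GRCm39, counted per gene with HTSeq 0.11.0 and ran DESeq2 1.22.0 (R 3.5.3) on the genotypes. The deposited value used is a signal, the authors' mean over all samples of counts divided by size factors. A minimum of 5 counts per sample was stated, yet 5385 genes have a mean under 5. The other 5 numeric columns of the table hold the authors' own comparison (fold change, its error, statistic, p-value and adjusted p-value) and were not used. The planned edgeR comparison needed counts per sample and was not made. The depth per sample is unknown, and the means sum to 16746088.

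Gene names came from the table. Coordinates and lengths came from GENCODE vM39 on GRCm39, a later annotation than that used for counting, in which 20122 (97.6%) identifiers matched. Means were divided by merged exon length in kb. Genes for comparison had a mean of at least 10. Shared 42-base windows were exact matches on both strands to annotated transcripts. Other lengths, minimum means and gene sets were tried. All 10 genes are named. The rule for each other list was to name the 3 highest per kb and every gene with a mean under 1. Further genes of these lists, markers among them, are named outside this rule. Those of the FERM and partner lists were picked after their values were seen. The genes and lists were chosen with earlier results of these data known. Python 3.11.15, numpy 2.4.6, pandas 2.3.3 and matplotlib 3.10.9 were used.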

Additional observations from a re-analysis of the deposited data

How the results depend on the processing

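The number of scaffold genes above the median level per kb was 7 of 10. It was 9 with the longest transcript as the length, with no length scaling and against all genes of the table, and 5 against genes with a mean of at least 100. With alternatives added after seeing the data it was 5 with coding length, 9 with the canonical transcript and 7 against protein-coding genes. All of these were within 1.5 times of 7, but that margin is wide for a list of 10. A count of 5 of 10 is no majority above the median, so the majority depended on the setting. Merged exons are the longest of the lengths, so that every level per kb rose with another one, and the median of all genes rose from 80.9 to 121 (longest transcript), 155 (canonical transcript) and 431 (coding length). Relative to that median, 9 of 30 levels of single genes moved by over 1.5 times, 4 with the longest transcript, 3 with the canonical transcript and 2 with coding length. Against the median, *Frmd4b* went from 0.787 to 1.57 times and *Frmd4a* from 0.611 to 1.42 times with the longest transcript, and *Farp2* from 1.36 to 0.454 times with coding length. Leaving out exons shared with other genes can only raise a level and was no test. *Epb41l3* was lowest under each of these lengths. A coding length from a protein table was not run, and the length of the annotation took its place. No paired analysis was possible because the table analysed gives a mean over all samples and no test was made. For the same reason no replicate could be left out, and the edgeR and DESeq2 alternatives were not run. Depth limits cannot be stated, since counts per sample were not analysed.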
